A study of Mus musculus with 2 samples.

Results

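Open chromatin was described at 10 genes listed as alpha granule cargo of platelets: Vwf, Selp, Thbs1, F5, F13a1, Mmrn1, Sparc, Tgfb1, Pdgfb and Srgn. They are 10 of the 21938 protein-coding genes in the GENCODE M21 annotation of mm10. All open regions that overlapped a gene body, or lay within 50 kb of the gene's 5′ end, were assigned to it. This gave 97 of the 80938 regions in the conservative list, the authors' peak list thresholded on the irreproducible discovery rate (IDR), a measure of how well ranked peaks recur. Of these 97 regions, 6 overlapped a window of 1 kb on either side of a member's own coding start site and are called promoter regions. Another 84 overlapped no such window of any protein-coding gene and are called distal, and the remaining 7 sat at the promoters of neighbouring genes.

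The data are ATAC-seq, in which a transposase cuts and tags accessible DNA, from primary megakaryocyte progenitor cells of male C57BL/6J mice at 5 to 6 weeks of age. There were 2 biological replicates of 50000 cells each, which form 1 group with no treatment, genotype or other cell type beside it. The labels give both replicates the same donor entry and do not say whether animals were pooled. The 2 libraries therefore show only the spread between these samples, no test between conditions could be made, and every contrast below is with the other genes or regions of the same libraries.

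Alpha granules are the most abundant secretory granules of platelets, and the megakaryocyte fills them before it releases platelets. Their contents are partly made in the megakaryocyte and partly taken up from plasma, and after a vessel wall is injured they bring adhesive proteins, clotting factors and growth factors to the site. In blood cells, GATA and ETS family factors are known regulators of megakaryocyte genes, and RUNX, AP-1 family and CACCC-binding factors act beside them.

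The windows printed first are the strongest distal regions of 6 members. Of these, Mmrn1, Sparc and Selp had no promoter region in the conservative list. Each is 151 bases centred on the strongest summit, on the plus strand of GRCm38.p6 from RefSeq. Capitals mark a GATA word (AGATAA or AGATAG or TGATAA or TGATAG), an ETS word (CAGGAAG or CCGGAAG), a RUNX word (TGTGGTT or TGCGGTT) or a CTCF consensus match, on either strand. The F5 window is chr1:164184645-164184795, the Mmrn1 window chr6:60950534-60950684 and the Sparc window chr11:55386570-55386720. The F13a1 window is chr13:37056785-37056935, the Selp window chr1:164135503-164135653 and the Srgn window chr10:62532929-62533079.
F5: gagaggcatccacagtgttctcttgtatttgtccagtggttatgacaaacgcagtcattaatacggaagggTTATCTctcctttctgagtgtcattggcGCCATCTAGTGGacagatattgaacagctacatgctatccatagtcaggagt
Mmrn1: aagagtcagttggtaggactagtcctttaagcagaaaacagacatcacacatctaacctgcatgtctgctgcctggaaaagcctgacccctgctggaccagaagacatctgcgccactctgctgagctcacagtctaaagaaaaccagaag
Sparc: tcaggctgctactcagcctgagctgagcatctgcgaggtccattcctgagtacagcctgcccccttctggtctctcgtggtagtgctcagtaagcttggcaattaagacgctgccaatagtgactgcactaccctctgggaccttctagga
F13a1: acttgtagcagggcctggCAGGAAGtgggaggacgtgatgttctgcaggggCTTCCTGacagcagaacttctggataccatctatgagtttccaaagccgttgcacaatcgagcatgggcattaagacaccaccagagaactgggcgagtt
Selp: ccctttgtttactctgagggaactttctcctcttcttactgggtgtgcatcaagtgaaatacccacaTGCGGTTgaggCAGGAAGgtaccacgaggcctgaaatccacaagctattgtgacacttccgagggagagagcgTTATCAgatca
Srgn: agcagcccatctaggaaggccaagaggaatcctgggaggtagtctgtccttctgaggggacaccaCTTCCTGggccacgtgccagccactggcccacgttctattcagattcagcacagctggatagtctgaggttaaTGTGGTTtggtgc

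In the F5 window a GATA word began 4 bases before the summit and the CTCF match 24 bases after it. The Selp window held 3 different words, a RUNX word starting 8 bases before the summit, an ETS word 3 bases after it and a GATA word 65 bases after it. The F13a1 window held 2 ETS words, on opposite strands, at 57 and 24 bases before the summit by their first base. The Srgn window held an ETS word 10 bases before the summit and a RUNX word 63 bases after it. The Mmrn1 and Sparc windows, which belong to regions among the strongest in the libraries, held none of the words marked. The matching Tgfb1 window (chr7:25651435-25651585), not printed here, also held none. A match is a stretch of letters and not a measured binding site.

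Promoters are compared in the next pair, the 250 bases before the RefSeq start of F5 (chr1:164151585-164151834) and of Tgfb1 (chr7:25686752-25687001). Both genes had a weak promoter region, and the pair shows a CpG-poor beside a CpG-rich promoter.
F5 promoter: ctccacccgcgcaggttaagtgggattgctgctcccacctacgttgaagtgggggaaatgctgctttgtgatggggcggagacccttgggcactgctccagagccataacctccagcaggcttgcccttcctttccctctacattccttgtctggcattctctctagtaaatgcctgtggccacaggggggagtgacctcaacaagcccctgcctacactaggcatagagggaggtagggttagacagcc
Tgfb1 promoter: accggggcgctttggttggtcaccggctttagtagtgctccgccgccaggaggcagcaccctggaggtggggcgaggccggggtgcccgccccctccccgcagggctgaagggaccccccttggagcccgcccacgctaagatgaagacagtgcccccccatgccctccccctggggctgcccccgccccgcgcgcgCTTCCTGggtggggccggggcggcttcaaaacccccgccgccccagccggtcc

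The Tgfb1 stretch held an ETS word whose first base lay 53 bases before the start, and the F5 stretch held no GATA, ETS or RUNX word. Among 32851 RefSeq promoters, 17.0% held an ETS word in the same 250 bases, 26.5% a GATA word and 5.59% a RUNX word. RefSeq promoter entries matched 7 of the 10 members.

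The label of the cells was checked against marker genes. A promoter region was found at 7 of 9 megakaryocyte markers, including Itga2b (signal 6.04), Pf4 (5.96), Gata1 (5.89) and Gp1ba (13.9), and at neither Gp1bb nor Gp6. In the replicates' own lists it was 5 of 9 in replicate 1 and 6 of 9 in replicate 2, against 57.9% and 57.1% of all genes. Gp9 (5.29) was in neither, and Fli1 (5.53) only in that of replicate 2, at 5.07. All 9 had at least 1 distal region. Over all protein-coding genes 61.0% had a promoter region and 83.6% a distal region, so these counts say little about the label. Other blood and vessel lineages were also open at some of their markers: 4 of 6 erythroid, 3 of 6 granulocyte, 2 of 6 monocyte and macrophage, 1 of 5 mast cell and 5 of 8 endothelial markers had a promoter region. The same held for 2 of 6 fibroblast markers, 1 of 4 B cell markers and 0 of 4 T cell markers. Vwf, Selp and Mmrn1 are also made by endothelial cells. Among endothelial markers, the conservative list held a promoter region at Cdh5 (13.6), Plvap (11.1), Pecam1 (8.49), Kdr (4.92) and Tek (4.66). It held none at Tie1, Emcn and Robo4. The split depended on the list: Kdr and Tek were in neither replicate's own list, and Robo4 was in that of replicate 2 (9.29). In the longer replicated list all 8 had a promoter region, as did all 9 megakaryocyte markers, against 68.9% of all genes. The part of other cell types in the regions at the members was not tested. In these bulk libraries a region open in fewer cells and a region less open in every cell cannot be told apart.

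In the conservative list some members had a promoter region and some had none, and most carried several distal regions. In the conservative list a promoter region was present at 5 of 10 members (50%, Wilson 95% interval 23.7 to 76.3%), against 61.0% of all protein-coding genes. The signal of a region, the authors' own enrichment value for its strongest summit, had a median of 5.44 over these 5 promoters and of 11.2 over the open promoters of all genes. All 5 lay below that median. The members' median number of distal regions was 8.5, against 4 over all genes, and all 10 had at least 1, against 83.6% of all genes. Vwf, Srgn, Selp, Tgfb1 and F5, 5 of 10 members, had 10 or more, against 11.6% of all genes. Since loci differ in length, the members' median was also 7.64 distal regions per 100 kb against 4 over all genes.

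**Figure D1:**
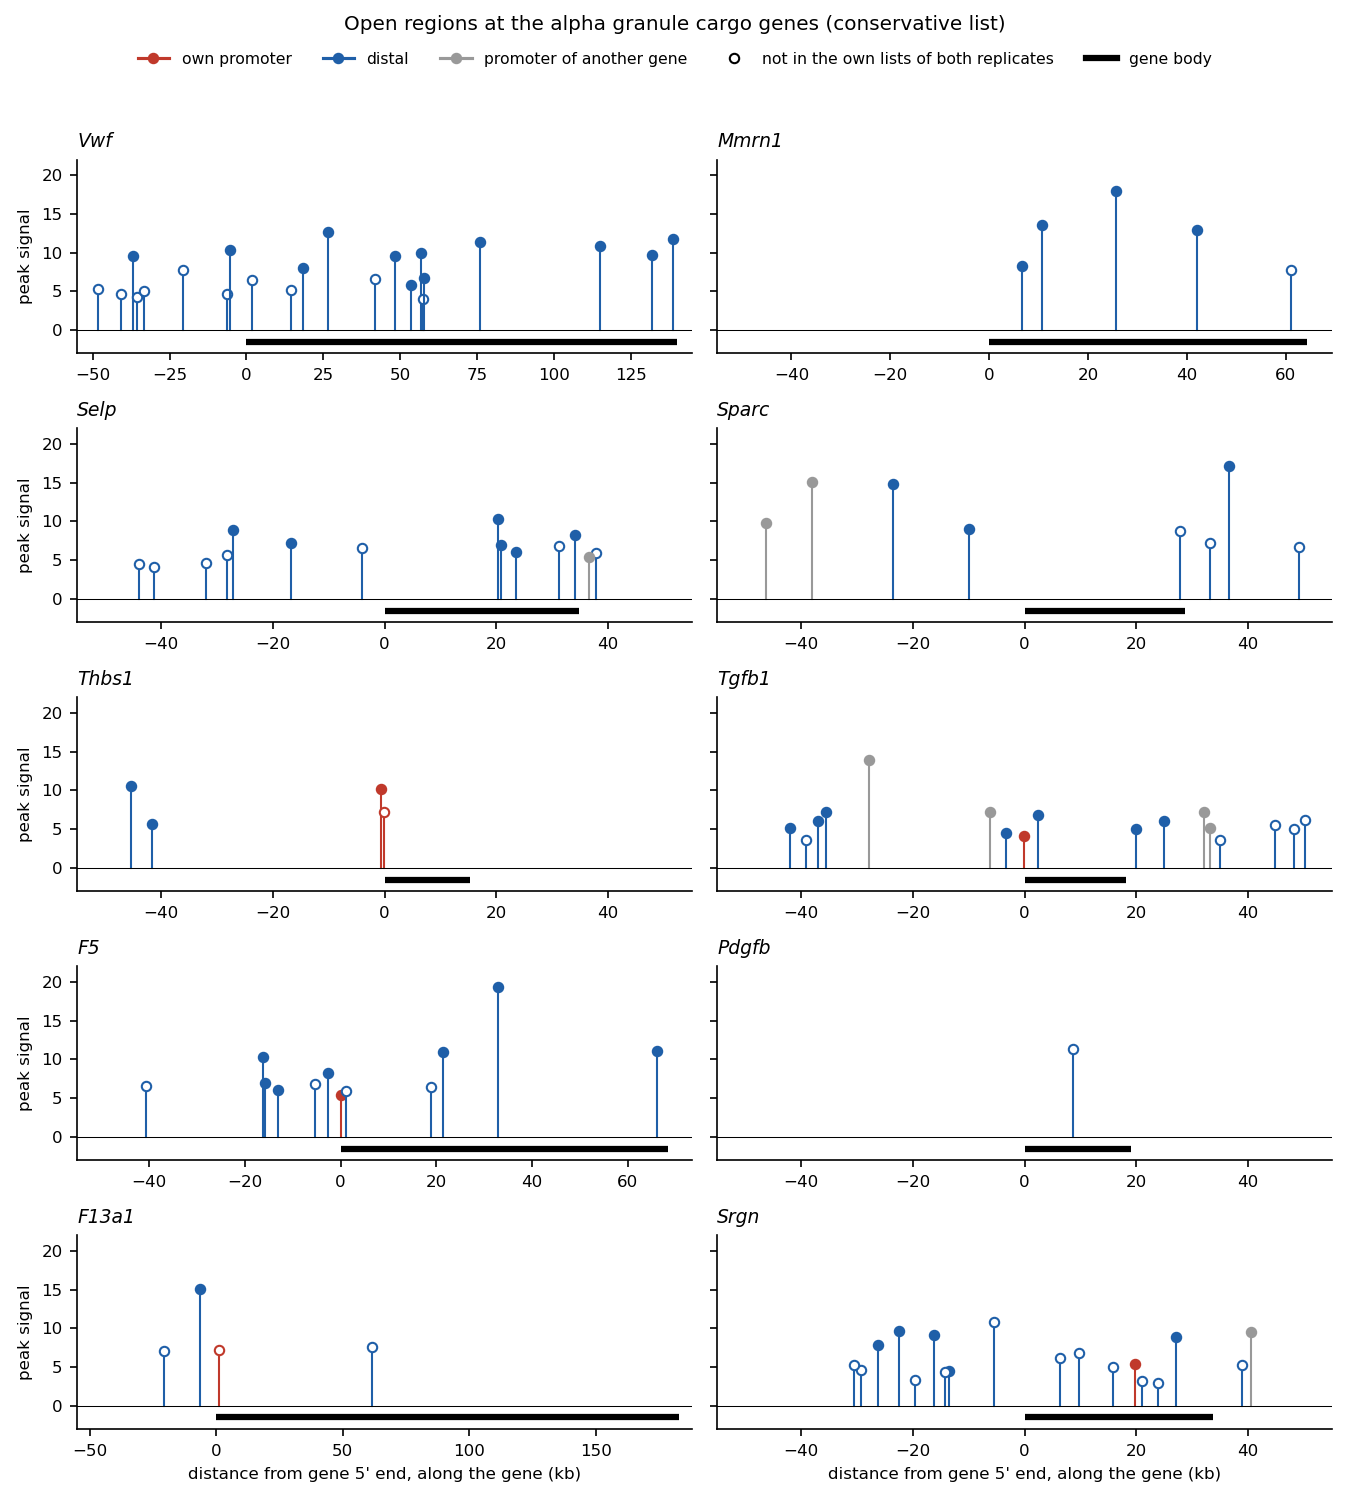
Open regions of the conservative list at each member, by distance from the gene's 5′ end along the direction of transcription (kb) and by peak signal; filled points were in the own lists of both replicates and the black bar is the gene body. The Vwf panel holds 22 distal regions and no promoter region, the Pdgfb panel a single region, and the tallest points are distal regions of F5 (19.3), Mmrn1 (17.97) and Sparc (17.2).

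Vwf encodes von Willebrand factor, the large multimeric protein that tethers platelets to exposed collagen and carries factor VIII. It had no promoter region in any of the lists examined and 22 distal regions, the most of any member. Replicate 1 had 12 and replicate 2 had 13 in its own list, so the 2 libraries differed by a single region, and 99.4% of genes had fewer than 22. Its locus is long (190 kb), but per 100 kb it still held 11.6 distal regions, more than 97.3% of genes.

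Of the 22 regions at Vwf, 14 lay in the gene body and 8 upstream, from -48.4 kb to 139 kb from the 5′ end. The strongest was chr6:125572338-125573940 in intron 6 of 51, a wide region of 1603 bp with 5 summits and a signal of 12.6. It was 11.6 in replicate 1 and 12.7 in replicate 2. Next came a region in intron 50 of 51, with a signal of 11.7 (10.01 in replicate 1, 11.3 in replicate 2), and a region in intron 18 of 51, with 11.4 (8.96 and 10.6). All 3 were lower in replicate 1. None of these was exceptional in height: the strongest Vwf region exceeded that of 49.1% of all genes. The locus was thus set apart by its number of regions and not by their strength, and 12 of the 22 were in the own lists of both replicates. By nearest coding start, 13 belonged to Vwf, 5 to Cd9, the gene of a platelet surface tetraspanin, and 4 to Ano2, both named after the values were seen. The regions in introns 18 and 50 were among the 4 nearest to Ano2.

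Selp encodes P-selectin, the granule membrane receptor that moves to the platelet surface on activation and binds leukocytes. It had no promoter region in the conservative list or in either replicate, and 13 distal regions, with 8 in each replicate's own list. The strongest, chr1:164135229-164135867 in intron 8 of 15, had a signal of 10.4, with 9.73 in replicate 1 and 10.6 in replicate 2. It is the region whose printed window holds GATA, ETS and RUNX words, and 31.2% of genes had a lower strongest distal region. Across the locus, 6 of the 13 regions held an ETS word, 4 a GATA word and 4 a RUNX word, against 15.6%, 29.9% and 10.4% of all distal regions.

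Selp and F5 are neighbours transcribed in the same direction on chromosome 1, so their loci share regions and are not independent of each other. They had 7 distal regions in common, 5 of them in the Selp gene body. By nearest coding start, only 2 of the 13 distal regions of the Selp locus belonged to Selp.

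Thbs1 encodes thrombospondin 1, an adhesive matrix protein that also activates latent transforming growth factor beta. It had the strongest promoter of the group, made of 2 regions. The stronger, chr2:118111082-118111459, had a signal of 10.2, with 9.01 in replicate 1 and 10 in replicate 2. The weaker, with a signal of 7.20, was at 6.17 in replicate 1 and absent from the own list of replicate 2, where the list made from pseudoreplicates, random splits of a library's reads, gave it 6.94. Even so, 40.1% of open promoters had a lower signal than the stronger region. Around it the locus was sparse: its 2 distal regions lay 45.3 and 41.7 kb upstream, and both held a GATA word, as did 29.9% of all distal regions. The farther had a signal of 10.6, with 10.2 in replicate 1 and 10.1 in replicate 2.

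F5 encodes coagulation factor V, the cofactor for thrombin generation, which mouse megakaryocytes make themselves. It combined a weak promoter with the strongest distal region of the group. Its promoter region, chr1:164151660-164152115 over exon 1 of 25, had a signal of 5.44, with 4.67 in replicate 1 and 5.69 in replicate 2. Only 3.43% of open promoters had a lower value. The distal region chr1:164184068-164184858, in intron 9 of 24 and 32.9 kb after the start, had a signal of 19.3, with 16.5 in replicate 1 and 17.4 in replicate 2. It ranked 1223 of all 80938 regions, and 98.5% of regions were lower. In both libraries the distal region lay far above the promoter, and their values did not overlap.

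Most of the other F5 regions were weaker, down to 5.97. A region in intron 3 of 24 had a signal of 10.9 (10.1 in replicate 1, 10.2 in replicate 2), and a region in intron 24 of 24 had 11.1 (10.7 and 11.05). Together F5 had 11 distal regions, with 8 in replicate 1 and 9 in replicate 2, and 91.4% of genes had fewer.

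Mmrn1 encodes multimerin 1, the granule protein that binds factor V. It had 5 distal regions, all in its gene body as annotated, and no promoter region in the conservative list. The strongest, chr6:60950473-60950732 in intron 1 of 7 and 6.13 kb after the nearest coding start, had a signal of 17.97. It was 13.5 in replicate 1 and 18.4 in replicate 2, the largest difference between replicates at any matched member region. On the log2 scale replicate 2 was higher by 0.45, and its height is the least certain of the leading regions for that reason. Signals of 13.5 (12.2 in replicate 1, 12.9 in replicate 2) and 12.9 (12.2 and 10.6) followed at chr6:60935012-60936036 and in intron 3 of 7. These put the median distal signal of Mmrn1 at 12.9, the highest median of any member with more than 1 distal region. Of the 5 regions, 4 were found in both replicates.

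F13a1 encodes the A subunit of factor XIII, the transglutaminase that cross-links fibrin, which in platelets is largely cytosolic. Its body is the longest of the group, and its locus of 233 kb held only 3 distal regions, or 1.29 per 100 kb. The strongest, chr13:37056494-37057201, lay 6.62 kb upstream of the 5′ end. It had a signal of 15.1, with 12.3 in replicate 1 and 14.5 in replicate 2, and 90.8% of all regions were lower. The promoter region over exon 1 of 15 had a signal of 7.25 but was in the own list of neither replicate, and the pseudoreplicate lists gave it 6.06 in replicate 1 and 7.03 in replicate 2. Vwf, also a long gene, held 11.6 per 100 kb.

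Tgfb1 encodes transforming growth factor beta 1, which platelets release in latent form. Its promoter region was the weakest of the 5 at 4.11, with 3.96 in replicate 1 and 4.07 in replicate 2, and 0.553% of open promoters were lower. Of its 12 distal regions only 1, in intron 1 of 6 with a signal of 6.77 (6.29 in replicate 1, 6.63 in replicate 2), lay nearest to the Tgfb1 start. The rest were closer to other genes of this gene-dense locus, where the promoters of Bckdha and Exosc5, B9d2 and Ccdc97 held 4 further regions. The shared Bckdha and Exosc5 promoter had a signal of 13.9. The strongest distal region, in an intron of Bckdha 35.5 kb upstream, reached 7.25 (6.61 and 7.49), the lowest maximum of any member.

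Pdgfb encodes the B chain of platelet-derived growth factor, a mitogen for smooth muscle cells and fibroblasts. It had a single open region, chr15:80006210-80006662 in intron 1 of 6, with a signal of 11.4. The region was at 9.92 in replicate 1 and absent from the own list of replicate 2, where the list made from pseudoreplicates gave it 10.6. Pdgfb had the fewest regions of the group, and 16.4% of genes had fewer distal regions.

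Sparc encodes a collagen-binding matrix protein also known as osteonectin. It had no promoter region in any of the lists examined, and 6 distal regions. The strongest, chr11:55386317-55386841, lay 36.5 kb from the 5′ end and past the far end of the gene, with a signal of 17.2. It was 14.6 in replicate 1 and 16 in replicate 2, and 95.9% of all regions were lower. Another, in an intron of Atox1 23.6 kb upstream, had a signal of 14.9 (13.5 in replicate 1, 13.1 in replicate 2). That region lay nearer to the start of Atox1 than to that of Sparc. The promoters of Atox1 (15.1) and G3bp1 (9.77), in the same locus, were open.

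Srgn encodes serglycin, the proteoglycan core protein that retains basic cargo inside the granules of blood cells. It had 16 distal regions, with 8 in each replicate's own list, and 97.8% of genes had fewer. Per 100 kb it was the densest of the members at 16 regions. Its promoter region did not lie at the 5′ end of the gene but 19.7 kb inside it, at coding starts over exon 2 of 4. Its signal was 5.35, with 4.95 in replicate 1 and 5.56 in replicate 2. Most of the distal regions were weak, with a median of 5.27. The strongest, 5.55 kb upstream, reached 10.9, with 9.54 in replicate 1 and no entry in the own list of replicate 2. A region at -22.5 kb from the 5′ end, in an intron of Kif1bp, had a signal of 9.66 and was found in both, at 8.97 and 9.62.

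Ordered by distal regions, the members ran Vwf, Srgn, Selp, Tgfb1, F5, Sparc, Mmrn1, F13a1, Thbs1 and Pdgfb. In the replicates' own lists Srgn, Selp, Tgfb1 and F5 had between 7 and 9 each, so their order is not set by these data. Sparc, Mmrn1 and Thbs1 had between 2 and 5, and F13a1 and Pdgfb between 0 and 2. Vwf, with 12 and 13 in a locus of 190 kb, did not overlap with any other member in these raw counts.

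**Figure D2:**
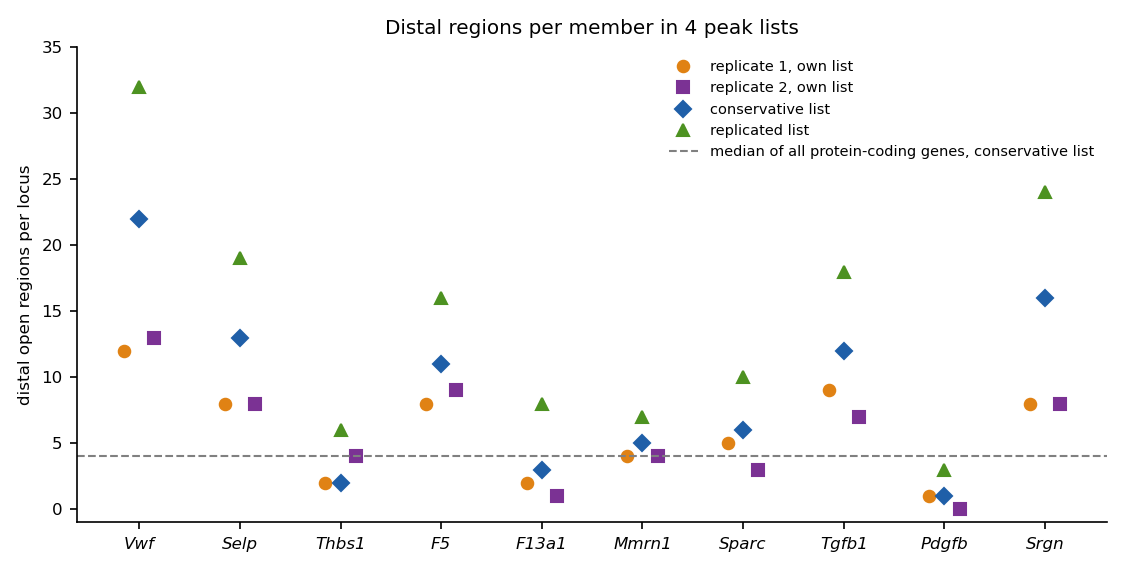
Number of distal open regions at each member in 4 peak lists, with the median of all protein-coding genes in the conservative list as a dashed line. Vwf is highest in each list (12 and 13 in the replicates, 32 in the replicated list) and Pdgfb lowest (1, 0 and 3).

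The replicates were also compared promoter by promoter. Replicate 1 and replicate 2 each had a promoter region at 4 of 10 members, against 57.9% and 57.1% of all genes. The 4 members were the same in both, namely Thbs1, F5, Tgfb1 and Srgn, against 55.7% of all genes with a promoter region in both. In the longer replicated list of 140155 regions, 8 of 10 members had a promoter region, against 68.9% of all genes. That list added Selp (chr1:164115069-164115465, signal 4.94), Mmrn1 (chr6:60944651-60945001, 4.38) and Pdgfb (chr15:80014855-80015165, 4.12). The pseudoreplicated list of both libraries together also had 8, against 68.4% of all genes. Vwf and Sparc had none in either.

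In all 5 members with both kinds of region the strongest distal region exceeded the promoter, which was so for 68.8% of all genes with both kinds. The strongest of 2 to 16 distal regions stood here against 1 or 2 promoter regions. The gap was smallest for Thbs1, at 10.6 against 10.2, and its replicates gave 10.2 against 9.01 and 10.1 against 10. It was largest for F5, at 19.3 against 5.44. A strongest distal region within the strongest 5% of all regions was found at 3 of 10 members, F5, Mmrn1 and Sparc, against 16.7% of all genes. Counted by gene, this share favours loci with more distal regions, and the members' median was 8.5 against 4 over all genes. Counted by region it went the other way: 3 of the 84 member distal regions (3.57%) were that strong, against 4.39% of all distal regions.

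**Figure D3:**
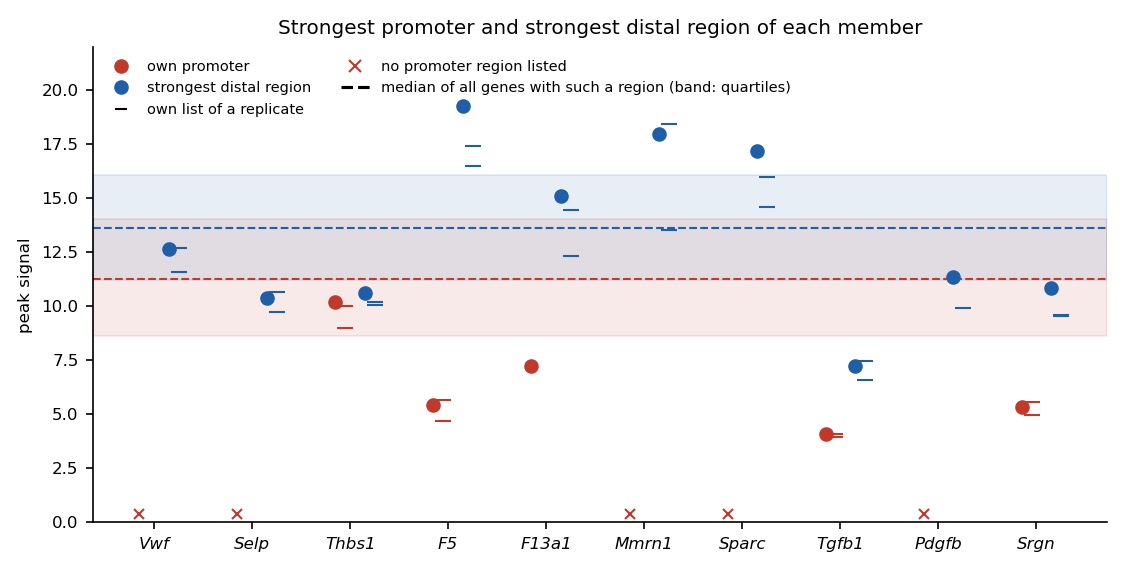
Peak signal of the strongest promoter region and the strongest distal region at each member, with short bars for the strongest in each replicate's own list and dashed lines and bands for the median and quartiles of all genes with such a region. All 5 member promoters sit below the median open promoter of 11.2. The distal regions of F5 (19.3), Mmrn1 (17.97), Sparc (17.2) and F13a1 (15.1) sit above 13.6, the median for genes that had any distal region. Those of all other members sit below it.

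Most of the members' promoters were poor in CpG, and over all genes CpG-poor promoters less often held a region in these libraries. The ratio of observed to expected CpG within 500 bp of the start, taken at the start with the highest value, had a median of 0.288 over the members and 0.614 over all genes. F13a1 (0.140), Vwf (0.186), F5 (0.230), Selp (0.238) and Sparc (0.247) were lowest. Only Tgfb1 (0.696) and Pdgfb (0.641) were above the median of all genes, and Thbs1 (0.573), Srgn (0.446) and Mmrn1 (0.329) lay between. Of the 8 members below that median, 4 had a promoter region, against 33.3% of all genes below it. At or above it 89.2% of genes had a promoter region, and of the pair of members there Tgfb1 had a region and Pdgfb did not.

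Over single regions, the members' signals were lower than the genome's. The median was 6.95 over the 97 member regions and 8.90 over all 80938 regions, with 6.79 and 8.75 for distal regions alone. In the own lists of both replicates were 54 of the 97 (55.7%, Wilson 95% interval 45.8 to 65.2%), against 63.9% of all regions. Another 12 were in replicate 1 only, 5 in replicate 2 only and 26 in neither. The median signal was 9.10 for the 54 and 5.52 for the rest, so the regions that a replicate did not list were the weaker ones by median. In the less strict lists made from pseudoreplicates of each library, 94 of the 97 were found in both.

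Where both replicates listed a region, their values were close. The median of log2 replicate 2 over replicate 1 was 0.10 (SD 0.15, n = 54 regions), against 0.08 (SD 0.18) over 51738 matched regions of the whole list. Replicate 2 was higher at 43 of 54 member regions, against 69.0% of all matched regions, a shift shared by the libraries as a whole. All but 2 of the 54 lay within 2 SD of the overall median, and 5.27% of all matched regions lay beyond it. The exceptions were the leading Mmrn1 region and chr7:25711739-25712278 in an exon of Ccdc97, in the Tgfb1 locus, which was lower in replicate 2 (6.49 in replicate 1, 5.34 in replicate 2).

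**Figure D4:**
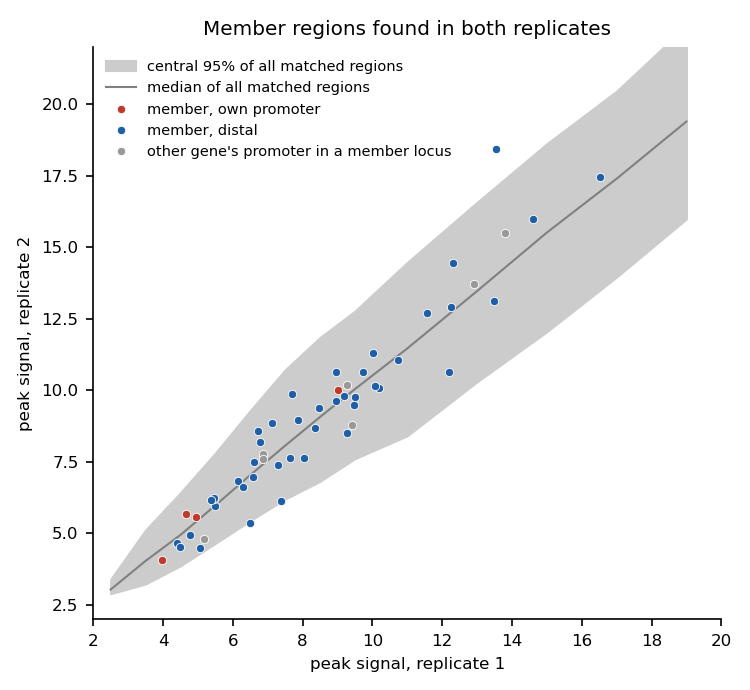
Peak signal in replicate 1 and replicate 2 of the 54 member regions found in both own lists, over the median and central 95% of all 51738 matched regions. The point just above the band is the intron 1 region of Mmrn1, at 13.5 in replicate 1 and 18.4 in replicate 2.

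By position, 51 of the 84 distal regions (60.7%) lay in introns, 23 (27.4%) were intergenic and 10 (11.9%) overlapped an exon at the summit. Over all distal regions these shares were 47.2%, 47.6% and 5.16%. The gene body forms part of the rule that chose the members' regions, so the higher intronic share is a description only. A member's coding start was the nearest for 51 of the 84, and 39 lay in a member's body.

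The sequence words were found at the members at about their share in all distal regions. Within 75 bp of the strongest summit, 23 of the 84 distal regions (27.4%, Wilson 95% interval 19.0 to 37.7%) held a GATA word, against 29.9% of all distal regions. An ETS word was found in 13 (15.5%), against 15.6%, and a RUNX word in 10 (11.9%), against 10.4%. The word shared by AP-1 and NFE2 (TGAGTCA) was found in 4 (4.76%), against 6.38%. The CACCC words (CCACACCC or CCCCACCC) were found in 5 (5.95%), against 6.43%, and the CArG element, the serum response factor site, in 1 (1.19%), against 0.657%. A GATA and an ETS word stood together in 3 (3.57%), against 3.89%, and either was present in 33 (39.3%), against 41.6%. The interval of each of these shares contained the share of all distal regions. A RUNX word and a CACCC word can share letters on opposite strands, and each family was searched on its own.

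The words were spread unevenly among the members. Tgfb1 and Srgn each had 5 distal regions with a GATA word, Vwf and Selp 4 each, F5 had 3, Thbs1 had 2, and F13a1 and Mmrn1 had 1 each. Neither Sparc nor Pdgfb had any. ETS words were found at Selp (6 regions), F5 (5), Srgn (3), F13a1 (2) and Tgfb1 (1), and regions shared by Selp and F5 count at both. Vwf, with the most regions, had none with an ETS word. The 6 own promoter regions held none of these words within 75 bp of the summit. Over all 16285 promoter regions the shares were 12.3% for GATA, 18.7% for ETS, 4.16% for RUNX, 2.78% for the AP-1 and NFE2 word, 9.09% for CACCC and 0.559% for CArG. Either a GATA or an ETS word was present in 29.3% of promoter regions and both in 1.76%. With 6 regions, a count of 0 has a Wilson 95% upper limit of 39.0%.

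The CTCF consensus was added after the F5 sequence was seen. It matched 6 of the 84 member distal regions (7.14%, Wilson 95% interval 3.31 to 14.7%), against 8.03% of all distal regions and 12.8% of distal regions within the strongest 5%. The matches were at Vwf (2 regions), Srgn (2), F5 and Sparc. Of the 3 leading regions of the group, only that of F5 held a match. None of the 6 own promoter regions did, against 2.17% of all promoter regions.

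**Figure D5:**
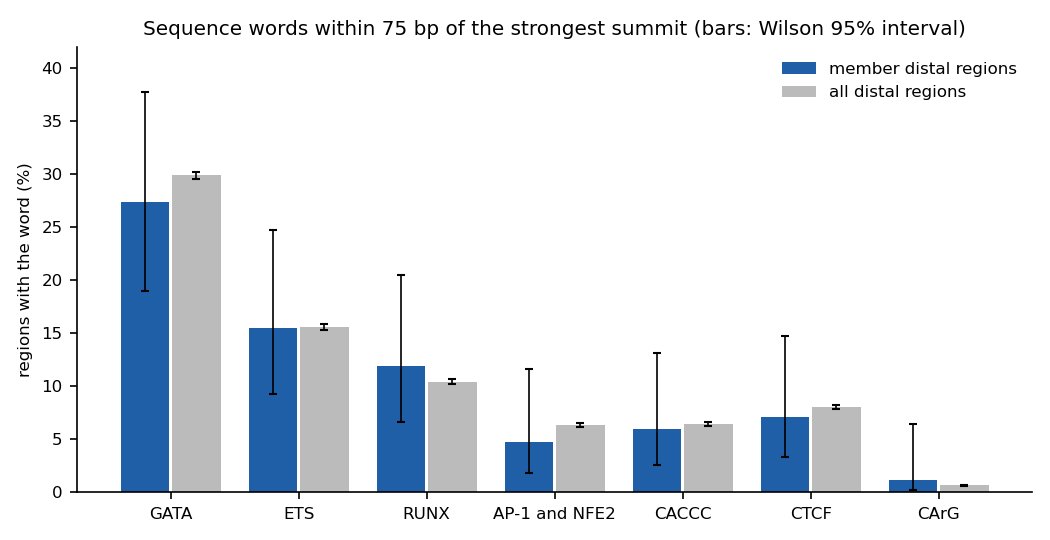
Percentage of distal regions with each sequence word within 75 bp of the strongest summit, for the 84 member regions and for all 64653 distal regions; error bars are Wilson 95% intervals and cover counting error only. The member bars for GATA (27.4%) and ETS (15.5%) stand beside 29.9% and 15.6% of all distal regions, inside the members' intervals.

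A wider list of 46 other alpha granule proteins served as a comparison. A promoter region was present at 33 of them (71.7%, Wilson 95% interval 57.5 to 82.7%), against 61.0% of all genes, with a median signal of 8.23, and the median number of distal regions was 6. These values lay between those of the 10 members and of all genes for promoter signal and distal number. In each replicate's own list 27 of the 46 had a promoter region, against 57.9% and 57.1% of all genes. Both replicates had one at 25 of the 46, against 55.7% of all genes. The highest promoters found in both replicates were those of Vtn (vitronectin, 18.4), F8 (factor VIII, 17.9), Egf (epidermal growth factor, 14.8), Aplp2 (14.7) and Timp2 (a metalloproteinase inhibitor, 13.3). Most distal regions were found at Ltbp1 (27), which encodes a protein that binds latent transforming growth factor beta, followed by Angpt1 (17), App (15), Itgb3 (12) and Gp9 (12). The fibrinogen genes Fga, Fgb and Fgg, whose product platelets take up from plasma, had no promoter region, and neither did the chemokine genes Ppbp and Ccl5. All 5 had distal regions, namely Fga (4), Fgb (3, the strongest at 19.6), Fgg (4), Ppbp (6) and Ccl5 (7). Long genes such as Ltbp1 offer more room for distal regions, since the gene body counts as locus.

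Receptors and partners of the members formed a second list of 13 genes, of which 12 had a promoter region, against 61.0% of all genes. Among them the von Willebrand factor receptor subunits were uneven, with Gp1ba at 13.9 (12.7 in replicate 1, 12.5 in replicate 2), Gp5 at 6.60, Gp9 at 5.29 and no promoter region at Gp1bb. Selplg, the P-selectin ligand, was at 8.47. The thrombospondin receptors Cd36 and Cd47 were at 5.96 and 8.58, and Itgav, an integrin chain that helps activate latent transforming growth factor beta, at 11.8. The promoter region of Gp9 was in neither replicate's own list, and that of Cd36 only in the list of replicate 2, at 5.95. Transforming growth factor beta receptors were open at both genes, Tgfbr1 at 10.7 and Tgfbr2 at 8.20. The platelet-derived growth factor receptors Pdgfra (9.48) and Pdgfrb (6.85) also had a promoter region, as did Cd44 (7.53), which binds serglycin. The median number of distal regions in this list was 10, against 4 over all genes, with 20 at Cd47 and 17 each at Selplg and Tgfbr2.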

How the data were processed

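ATAC-seq peak lists of 2 replicates were used as the authors deposited them. They are interval lists on mm10 with a signal value, a −log10 p-value and a −log10 q-value for each summit, as deposited by the authors. The aligner, the peak caller, duplicate handling and the scaling of signal between libraries were not given in the sources used here. Read counts were not analysed, so depth is unknown. The label of replicate 1 names sequencers of 2 models and that of replicate 2 names none. Replicate 1 had 61735 and replicate 2 had 60098 regions in its own list.

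Summits of the same interval were merged into 1 region with the signal of the strongest summit. Promoters were windows of 1 kb around 54361 start sites of protein-coding transcripts (GENCODE M21), and loci were gene bodies plus 50 kb around the 5′ end. A region was shared when 50% of either region overlapped. Each member was named. Of the wider list, the 5 highest promoters found in both replicates, the 5 genes with most distal regions and 5 without a promoter region were named, and all receptors and partners. Of the listed megakaryocyte markers, 1 is not reported here. Members and lists were chosen with earlier results of these data known. There was 1 group, so no test was made; each count stands beside that over all genes or regions, with Wilson 95% intervals that cover counting error only. Words were searched in 151 bp on both strands. Alternatives covered the peak list, signal threshold, windows, overlap, summit and leaving out each replicate. Scripts ran in Python 3.11.15 with pandas 2.3.3, numpy 2.4.6, scipy 1.17.1 and pysam 0.24.0, and were tested on simulated data.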

Additional observations from a re-analysis of the deposited data

How the results depend on the processing

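Depth and scaling are unknown, so a region missing from a list was not detectable at its threshold and is not shown to be closed. No paired analysis was possible because there was only 1 group. The count of members with a promoter region (5) was 8 in the replicated and 8 in the pseudoreplicated list, and 1 among the stronger 50% of regions. The 84 distal regions became 132, 131 and 26 under these settings, 52 with a locus window of 20 kb, and 52 to 54 when a replicate was left out. The share of member regions in both replicates (55.7%) was 96.9% with pseudoreplicated lists and 93.5% among the stronger 50% of regions. The GATA share (27.4%) was 17.9% within 50 bp of the summit. The ETS share (15.5%) ran from 19.2% to 25.9% when a replicate was left out. Fewer or more regions entered the counts by the construction of these settings. A window of 50 bp around the same summits can only hold the same words or fewer, so the GATA share could not rise there. For the ETS share the cause was not tested. Of the values for the comparisons, 28 alternatives were counted as unchanged and 13 as moved, and for single members 120 and 42. The limit was wide: in the replicated list Vwf at 32 distal regions, from 22, and Srgn at 24, from 16, counted as unchanged. For promoters, the members' share was below that of all genes in the conservative list (50% against 61.0%) and above it in the replicated (8 of 10 against 68.9%) and pseudoreplicated lists (8 of 10 against 68.4%).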

Other observations

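The replicated list held 153 distinct regions at the members, of which 56 overlapped no region of the conservative list. These were weak, with a median signal of 3.68 and a highest of 7.84. They raised Vwf from 22 to 32 distal regions, Srgn from 16 to 24 and Tgfb1 from 12 to 18. F13a1 went from 3 to 8 and Pdgfb from 1 to 3.

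The 5 genes outside the lists whose number of distal regions and promoter signal together came closest to the members' mean were Cldnd2, Ptgr1, Arhgef40, B430305J03Rik and Lzts2. The measure was the Euclidean distance over 2 values per gene, the log2 of 1 plus the distal regions and the promoter signal. Each was divided by its SD over all genes, and a gene without a promoter region entered with a promoter signal of 0. Each of the 5 had 7 distal regions and a promoter signal from 2.64 to 3.88. They were picked for this closeness, at distances of 0.03 to 0.10, so it is a description only. The members themselves lay 0.53 (Sparc) to 1.72 (Pdgfb) from their mean, so closeness to it is not likeness to a single member.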
